A study of Mus musculus with 8 samples.

Results

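The dystrophin complex is a set of membrane and submembrane proteins that ties the actin cytoskeleton to the matrix outside the cell. Dystroglycan binds laminins outside and dystrophin or its relative utrophin inside, the sarcoglycans stand beside it as a transmembrane subcomplex, and dystrobrevins and syntrophins attach adaptors and signaling enzymes to dystrophin. The complex is best known from striated muscle, where loss of dystrophin or of a sarcoglycan causes muscular dystrophy, and variants of it with utrophin or with ε-sarcoglycan occur in many other tissues.

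The 9 genes described here were taken by symbol from the deposited table of 19460 genes: the sarcoglycans Sgca, Sgcb, Sgcd and Sgce, the dystroglycan gene Dag1, the dystrophin gene Dmd, its relative Utrn, the α-dystrobrevin gene Dtna and the β1-syntrophin gene Sntb1. All 9 were found. The list was selected on earlier results of these data, the measured levels in the 4 Lgr6-null and 4 wild-type libraries. RNA came from cultured bone marrow stromal cells, a mix of plastic-adherent cells with osteoblast precursors, from adult mice. These were Lgr6-null, homozygotes of Lgr6-GFP-ires-CreERT2 (a reporter with an inducible recombinase), or wild-type. Both genotypes had the C57BL/6 strain background, and both sets of cultures had 10 days of osteogenic medium, in which ascorbic acid was at 50 µg/mL and β-glycerophosphate at 4 mM, with serum. Each genotype had 4 libraries, named by the numbers of the table's columns (Lgr6-null M0, M2, M3 and M4, and wild-type M0 to M3). The labels do not say whether libraries came from separate animals or cultures, or whether animals were pooled, so errors and p-values measure only the spread between these libraries.

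Libraries held 7629968 to 21135173 reads in genes, the fewest in Lgr6-null M4. Lgr6, an R-spondin receptor that strengthens Wnt signaling, averaged 76.2 ± 19.2 normalized counts in Lgr6-null cultures and 1287 ± 303 in wild-type cultures (SD, n = 4 each). Its difference was -4.06 on the log2 scale (SE 0.20; limma adjusted p = 2.73e-06; two-sided exact permutation p = 0.0286, the smallest that 4 against 4 libraries allow), with the genotypes well apart. Of 10 osteoblast markers, 10 were called lower in Lgr6-null, and of 12 macrophage markers, 9 were called higher. Over all genes tested, 13.0% were called higher and 12.7% lower. Marrow stromal markers such as Pdgfra, Pdgfrb and Cxcl12 were present in every library. The 8 marrow stromal markers differed in direction: Pdgfrb and Cxcl12 were called higher, Lepr lower (-0.93 on the log2 scale, SE 0.22), and 5 were not called.

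Since the levels in both genotypes were used to choose the members, their differences are given as a description, with no test. Values are the authors' normalized counts, and a fold change is Lgr6-null minus wild-type on the scale log2(normalized count + 1). In a fit over all 14294 genes tested, 0 of the 9 members were past the threshold (limma adjusted p under 0.05) in the higher direction and 5 in the lower direction, where 13.0% of all genes were called higher and 12.7% lower (25.7% in either direction). The count in the higher direction was also 0 at an unadjusted p under 0.05, with edgeR and with DESeq2. Genotypes did not overlap for 4 members, each lower in Lgr6-null, where 14.7% of all tested genes were so (14.4% were higher without overlap, 29.1% in either direction), and nothing is read from these counts. The median log2 fold change of the members was -0.31, and that of all tested genes was 0.00. In whole cultures, fewer cells of a type and less RNA per cell cannot be told apart.

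**Figure D1:**
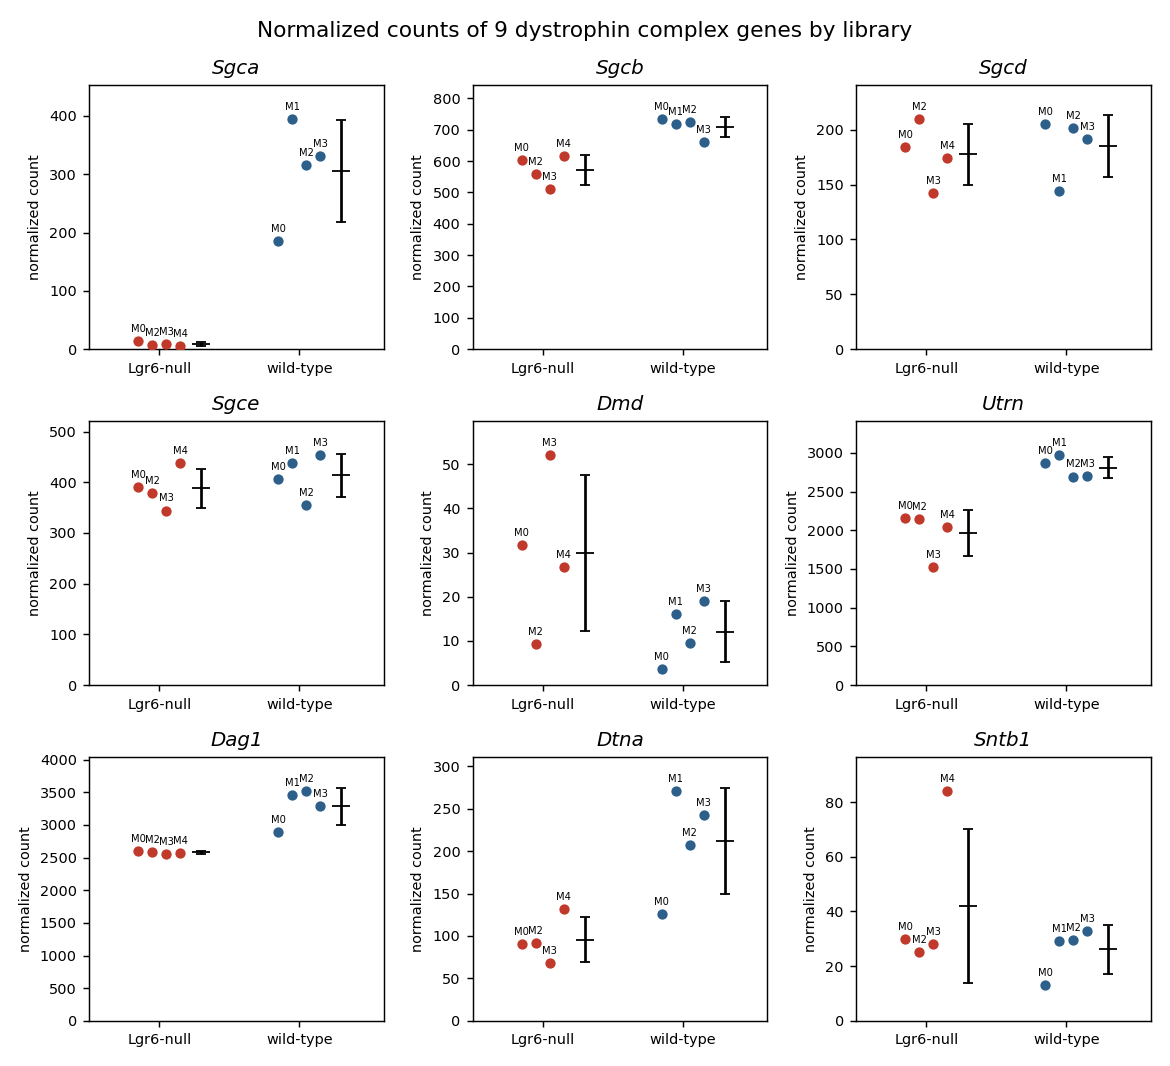
Normalized count (vertical axis, from 0) of each of the 9 genes in the 4 Lgr6-null libraries (red, left) and the 4 wild-type libraries (blue, right), with the mean and SD as a black bar. Sgca sits between 5.73 and 13.4 in Lgr6-null and between 186 and 394 in wild-type, while Sgcd and Sgce cover the same range in both genotypes.

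Among the sarcoglycans, Sgca was far lower in Lgr6-null, Sgcb was lower by much less, and Sgcd and Sgce overlapped between genotypes. Sgca encodes α-sarcoglycan, the sarcoglycan best known from skeletal and cardiac muscle. It had 13.4, 7.54, 8.18 and 5.73 normalized counts in Lgr6-null M0, M2, M3 and M4, against 186, 394, 315 and 330 in wild-type M0, M1, M2 and M3. Every Lgr6-null library was far below every wild-type library, and wild-type M0 was the lowest of its genotype. On average Sgca in Lgr6-null stood at 2.84% of its wild-type level (8.70 ± 3.28 and 306 ± 87.4; SD, n = 4 each), a log2 fold change of -4.99 (SE 0.29). The Lgr6-null values rest on 16, 9, 11 and 3 reads, against 200, 416, 362 and 261 reads in wild-type. With 10 normalized counts reached in 1 Lgr6-null library, Sgca entered the fit through its wild-type level, so that it had to differ to be tested.

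Sgcb encodes β-sarcoglycan, which forms the core of the subcomplex with δ-sarcoglycan. It had 602, 558, 510 and 615 normalized counts in Lgr6-null M0, M2, M3 and M4, against 733, 719, 723 and 662 in wild-type M0, M1, M2 and M3. The genotypes did not overlap, and Sgcb in Lgr6-null averaged 80.5% of its wild-type level (log2 fold change -0.31, SE 0.08).

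Sgcd, the δ-sarcoglycan gene, had 185, 209, 142 and 174 normalized counts in Lgr6-null M0, M2, M3 and M4, against 205, 144, 201 and 191 in wild-type M0, M1, M2 and M3. The ranges covered each other, with a log2 fold change of -0.06 (SE 0.15). Sgce encodes ε-sarcoglycan, the close relative of α-sarcoglycan that is made in many tissues, and is imprinted. It had 390, 379, 344 and 437 normalized counts in Lgr6-null M0, M2, M3 and M4, against 406, 438, 355 and 453 in wild-type M0, M1, M2 and M3. Here too the genotypes overlapped (log2 fold change -0.09, SE 0.10). For both genes the sign depended on scaling: with libraries scaled to the same total, the log2 fold change was 0.03 for Sgcd and 0.00159 for Sgce, and Sgcd was at 0.04 without Lgr6-null M3. With libraries scaled to pan-mesenchymal genes, it was -0.41 (SE 0.16) for Sgcd and -0.44 (SE 0.13) for Sgce.

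The make-up of the sarcoglycan RNAs is given next, again as a description. Counted per kilobase of exon (the union of a gene's annotated exons), Sgca made up 2.46% ± 0.867 of the sum of the 4 sarcoglycans in Lgr6-null, against 42.1% ± 8.08 in wild-type (SD, n = 4 each). Sgcb made up 69.1% ± 0.976 in Lgr6-null and 42.9% ± 6.10 in wild-type, and Sgce 17.9% ± 0.802 in Lgr6-null and 9.50% ± 1.29 in wild-type. The ratio of Sgca to Sgce, per kilobase, averaged 0.139 ± 0.0541 in Lgr6-null libraries and 4.54 ± 1.26 in wild-type libraries. The sum itself was 204 ± 17.1 normalized counts per kilobase in Lgr6-null and 413 ± 46.3 in wild-type. These values depend on the length used. With the longest transcript, the ratio of Sgca to Sgce averaged 0.0583 ± 0.0227 in Lgr6-null and 1.90 ± 0.527 in wild-type. With the median coding transcript it averaged 0.0264 ± 0.0103 in Lgr6-null and 0.861 ± 0.239 in wild-type, so whether Sgca or Sgce was higher on average in wild-type turned with the length. Wild-type libraries ran from 0.530 to 1.04 with that length, so single libraries lay on either side of an equal level. The share of Sgca was then 1.79% with the longest and 1.28% with the median coding transcript in Lgr6-null, against 35.0% and 28.5% in wild-type, and its libraries stayed apart by genotype with each length. With the median coding transcript, Sgce made up 48.9% ± 1.84 in Lgr6-null and 33.7% ± 3.09 in wild-type. Sgcb then made up 31.6% ± 0.844 in Lgr6-null and 25.4% ± 2.82 in wild-type. Whether Sgcb or Sgce was higher thus turned with the length too.

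The promoters of Sgca and Sgcb are shown because these genes had nearly the same level per kilobase of exon union in wild-type and differed most among the sarcoglycans in Lgr6-null. The sequences are the 250 bases before the RefSeq start of each gene in the build GRCm38.p6, on the minus strand, at chr11:94976328-94976577 for Sgca and chr5:73647738-73647987 for Sgcb. They are written 5′ to 3′ in the direction of transcription, with CpG dinucleotides in capitals.
Sgca promoter: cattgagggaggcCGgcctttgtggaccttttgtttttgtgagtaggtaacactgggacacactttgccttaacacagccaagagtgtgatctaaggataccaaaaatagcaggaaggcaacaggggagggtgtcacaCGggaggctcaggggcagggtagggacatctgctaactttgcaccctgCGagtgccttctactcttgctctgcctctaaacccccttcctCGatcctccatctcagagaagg
Sgcb promoter: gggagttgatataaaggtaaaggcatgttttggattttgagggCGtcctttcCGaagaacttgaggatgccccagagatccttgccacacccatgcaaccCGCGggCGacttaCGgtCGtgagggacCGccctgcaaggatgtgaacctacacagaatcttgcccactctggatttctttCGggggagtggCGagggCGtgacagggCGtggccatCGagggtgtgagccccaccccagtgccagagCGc
The Sgca window held 4 CpG dinucleotides and 52.8% G and C, and the Sgcb window held 14 and 58.4%, where the median over 32851 such windows was 6 CpG dinucleotides and 52.4% G and C. The sequence CANNTG (an E-box, searched on both strands, which read the same) occurred 1 time in the Sgca window and 0 times in the Sgcb window, and 66.2% of all windows held it. The sequence TGTGGT, the core bound by Runx factors, was searched on both strands and occurred in neither window, where 14.0% of all windows held it. Windows were found for 6 of the 9 genes, with 8 windows in all.

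Dag1 encodes dystroglycan, which is cut into the laminin-binding α subunit and the β subunit that spans the membrane. It had 2599, 2592, 2556 and 2568 normalized counts in Lgr6-null M0, M2, M3 and M4, against 2889, 3460, 3518 and 3285 in wild-type M0, M1, M2 and M3. The Lgr6-null libraries lay close together (coefficient of variation 0.778%) and all below the wild-type libraries (8.63%). The log2 fold change was -0.35 (SE 0.07), and -0.25 with libraries scaled to the same total.

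Of the genes whose products link dystroglycan to actin, Utrn was abundant and Dmd had few reads. Utrophin, the product of Utrn, is the widely expressed relative of dystrophin. Utrn had 2154, 2147, 1530 and 2041 normalized counts in Lgr6-null M0, M2, M3 and M4, against 2863, 2969, 2694 and 2696 in wild-type M0, M1, M2 and M3. All Lgr6-null libraries were below all wild-type libraries, M3 by the most, and the log2 fold change was -0.52 (SE 0.11).

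Dmd had 31.7, 9.21, 52.0 and 26.7 normalized counts in Lgr6-null M0, M2, M3 and M4, against 3.71, 16.1, 9.58 and 19.0 in wild-type M0, M1, M2 and M3. In 3 Lgr6-null libraries it was above every wild-type library, while Lgr6-null M2 lay among the wild-type values. The log2 fold change of 1.21 had an SE of 0.58 and rests on 38, 11, 70 and 14 reads in Lgr6-null and 4, 17, 11 and 15 reads in wild-type. Dmd makes long and short isoforms from several promoters, which counts per gene do not separate. Per kilobase of exon, Utrn was 40.9 to 324 times as high as Dmd in Lgr6-null libraries and 198 to 1074 times as high in wild-type libraries, and these ranges overlap.

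Among the cytoplasmic subunits, Dtna was lower on average in Lgr6-null, and Sntb1 had no clear direction. α-Dystrobrevin, the product of Dtna, binds dystrophin or utrophin and recruits syntrophins. Dtna had 90.2, 92.1, 67.6 and 132 normalized counts in Lgr6-null M0, M2, M3 and M4, against 126, 271, 207 and 243 in wild-type M0, M1, M2 and M3. Lgr6-null M4 lay just above wild-type M0, and the other 3 Lgr6-null libraries were below every wild-type library. The log2 fold change was -1.13 (SE 0.26). Sntb1 encodes β1-syntrophin, an adaptor with a PDZ domain. It had 30.1, 25.1, 28.2 and 84.0 normalized counts in Lgr6-null M0, M2, M3 and M4, against 13.0, 29.4, 29.6 and 32.9 in wild-type M0, M1, M2 and M3. A single library, Lgr6-null M4, stood high, and the log2 fold change of 0.55 (SE 0.42) was 0.16 without it. The values rest on 36, 30, 38 and 44 reads in Lgr6-null and 14, 31, 34 and 26 reads in wild-type, in the same order.

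**Figure D2:**
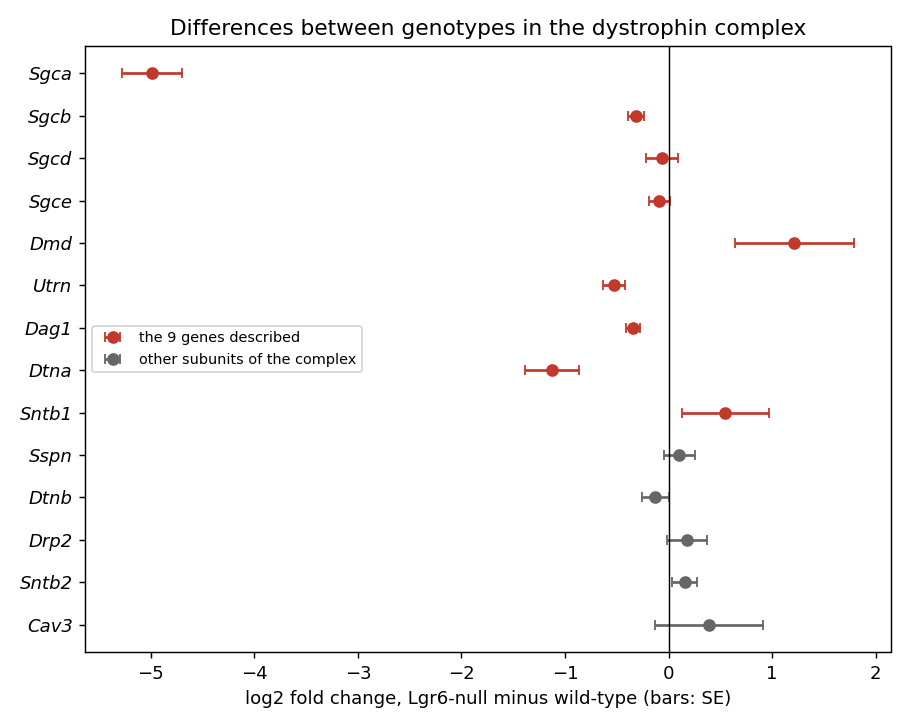
Log2 fold change (horizontal axis, Lgr6-null minus wild-type, bars are SE) of the 9 genes in red and of 5 other subunits of the complex in grey. Sgca stands far to the left at -4.99, Dtna is at -1.13, and the other genes lie between -0.52 and 1.21.

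Libraries differed within genotypes too. Wild-type M0 was the lowest wild-type library for 5 of the 9 genes (Sgca, Dmd, Dag1, Dtna and Sntb1), and Lgr6-null M3 the lowest Lgr6-null library for 6 (Sgcb, Sgcd, Sgce, Utrn, Dag1 and Dtna). The coefficient of variation in Lgr6-null ran from 0.778% for Dag1 to 67.3% for Sntb1. In wild-type it ran from 4.50% for Sgcb to 56.5% for Dmd.

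Per kilobase of exon, Dag1 stood first in both genotypes, at 406 ± 3.16 normalized counts per kilobase in Lgr6-null and 517 ± 44.6 in wild-type (SD, n = 4 each). In wild-type, Sgca (177 ± 50.4), Sgcb (175 ± 7.87) and Utrn (164 ± 7.87) followed, and the ranges of neighbours in that order overlapped. Then came Sgce (38.9 ± 4.08), Sgcd (22.4 ± 3.42), Dtna (12.5 ± 3.71), Sntb1 (4.92 ± 1.68) and Dmd (0.508 ± 0.287), with no overlap between neighbours. In Lgr6-null the order after Dag1 was Sgcb (141 ± 11.7), Utrn (115 ± 17.3), Sgce (36.5 ± 3.62), Sgcd (21.5 ± 3.38), Sntb1 (7.86 ± 5.29), Dtna (5.64 ± 1.57), Sgca (5.01 ± 1.89) and Dmd (1.26 ± 0.740). There the ranges overlapped between Sgcb and Utrn, between Sntb1 and Dtna and between Dtna and Sgca. Sgca was second in wild-type and eighth in Lgr6-null. The order depends on the length used. With the longest transcript, Sgca was the fourth in wild-type, after Dag1, Utrn and Sgcb, and the ranges of Sgcb and Sgca overlapped. With the median coding transcript Utrn was the first in both genotypes, ahead of Dag1. Their ranges overlapped in Lgr6-null (544 to 765 for Utrn, 594 to 604 for Dag1) and were apart in wild-type.

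**Figure D3:**
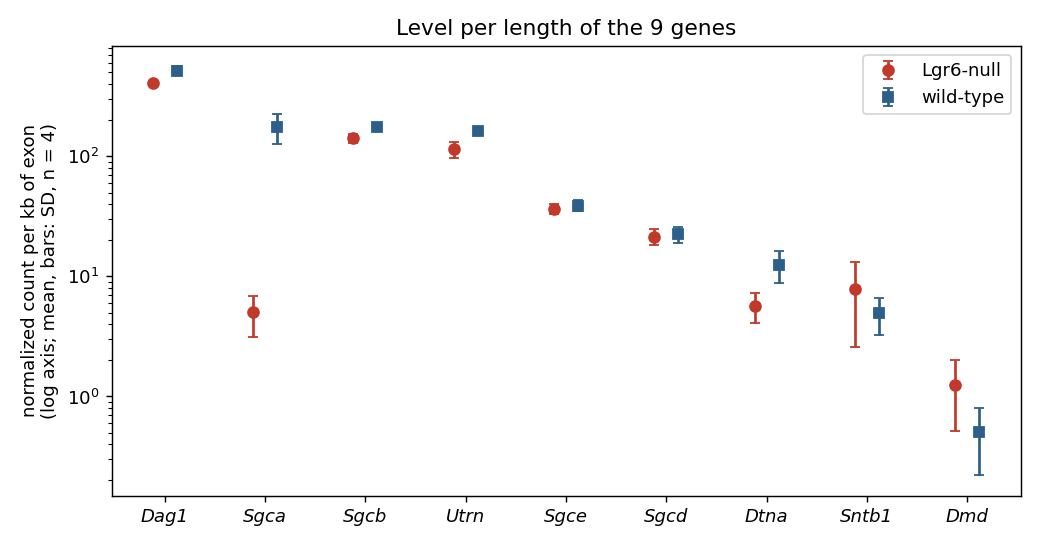
Normalized count per kilobase of exon (vertical log axis, mean and SD of 4 libraries) for the 9 genes in the order of their wild-type level, with Lgr6-null as red circles to the left and wild-type as blue squares. Sgca is at 5.01 for Lgr6-null and 177 for wild-type, next to Sgcb at 141 and 175.

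Transcripts of related genes shared exact runs far shorter than the reads of 100 bases. The longest run was 12 bases between Sgca and Sgce, 25 between Dmd and Utrn, 31 between Dtna and the β-dystrobrevin gene Dtnb, and 20 between Sntb1 and Sntb2.

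Sgca lies beside Col1a1, the main collagen gene of bone, on the opposite strand of chromosome 11, with 1 annotated gene that was not analysed here between them (GENCODE M21, GRCm38). Col1a1 averaged 129990 ± 10701 normalized counts in Lgr6-null, against 792253 ± 117299 in wild-type (SD, n = 4 each; -2.60 on the log2 scale, SE 0.24; limma adjusted p = 8.44e-05). The strand setting of the counting is not given in the sources used here. If strand was ignored, reads running past the end of Col1a1 could have been counted for Sgca, and such reads and Sgca's own cannot be told apart in these counts. Relative to Col1a1 in the same library, Sgca had 0.446 to 1.01 reads per 10000 Col1a1 reads in Lgr6-null, against 2.74 to 4.26 in wild-type, so Sgca was lower in Lgr6-null by more than Col1a1 was. On the other side of Sgca, the gene Ppp1r9b was at 3711 ± 172 in Lgr6-null, against 3550 ± 94.6 in wild-type. Both neighbours were singled out after values were seen.

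**Figure D4:**
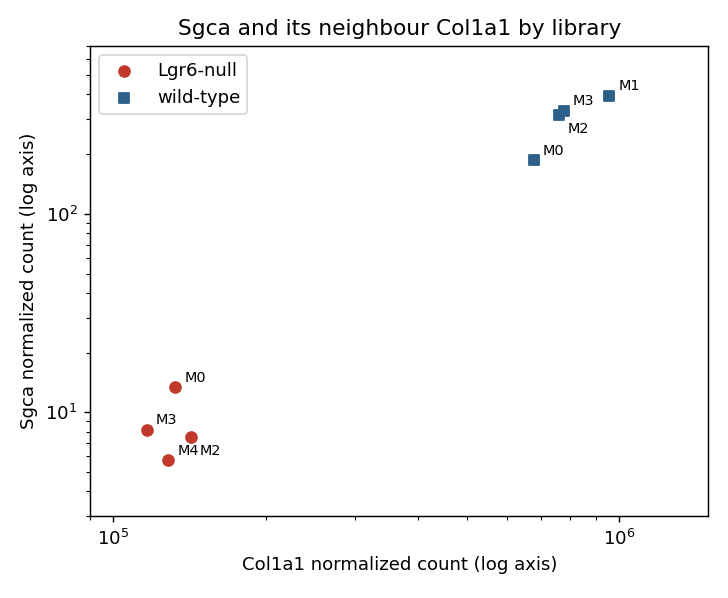
Normalized count of Sgca (vertical log axis) against its neighbour Col1a1 (horizontal log axis) in each library, Lgr6-null as red circles and wild-type as blue squares. The genotypes form separate groups, with Sgca at 5.73 to 13.4 in Lgr6-null, against 186 to 394 in wild-type.

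Markers of other cell types moved with genotype as well. Of 14 skeletal muscle markers, 10 were not analysed here, among them Pax7, Myod1, Myog and Ckm. The other 4 (Acta1, Actn3, Ttn and Neb) summed to 52.8 to 125 normalized counts in Lgr6-null libraries, against 49.2 to 73.4 in wild-type libraries, and of 3 tested, none was called higher or lower by limma (2 higher and 0 lower at an unadjusted p under 0.05, 1 higher with edgeR and with DESeq2). Of 12 smooth muscle and mural cell markers, 11 were analysed, and they summed to 17567 to 24348 in Lgr6-null, against 6928 to 14826 in wild-type. Of these, 3 were called higher and 1 lower of 10 tested, beside 13.0% and 12.7% of all genes. Osteoblast markers summed to 184813 to 259317 in Lgr6-null, against 1183735 to 1559645 in wild-type. Macrophage markers summed to 401613 to 605670 in Lgr6-null, against 262434 to 311359 in wild-type, and 3 of these markers were not called. Single genes weigh heavily in these sums. Acta2 averaged 18348 in Lgr6-null and 8860 in wild-type, most of the smooth muscle sum. Lyz2 averaged 300686 in Lgr6-null and 168677 in wild-type, most of the macrophage sum. Acta1 had 87.0 of the skeletal muscle sum of 125 in Lgr6-null M3. The part of these cell types in the differences of the 9 genes was not tested.

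By likeness over the 8 libraries (Pearson r on the log2 scale among 10441 genes with a mean of at least 100, a description that the genotype difference dominates where there is one), the 3 genes closest to each member were as follows. Closest to Sgca were Tbl2, P4ha2 and Insig2 (r of 0.994 to 0.999), and closest to Sgcb were Ascc3, Pgm3 and Gnb5 (0.979 to 0.989). For Utrn they were Nbas, Kdm5c and Spen (0.991 to 0.993), for Dag1 Pls3, Shmt2 and Slk (0.985 to 0.990), and for Dtna Smtn, Rnf20 and Kdelc1 (0.977 to 0.986). Genes without a clear difference had lower values: Tsen54, Atxn1l and Uhrf2 for Sgcd (0.919 to 0.936) and Depdc5, Slc35a1 and Fam161a for Sgce (0.902 to 0.907). Dmd was closest to Cdkn2c, Myl6 and Lactb (0.966 to 0.971), and Sntb1 to Bicra, Cntln and Col12a1 (0.920 to 0.957). The values come from the same 8 libraries throughout.

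The other genes of the pathway were tested in the same fit, from lists written with earlier results of these data known. Of 11 other subunits, 8 were analysed and 6 tested, with 0 called higher (0 at an unadjusted p under 0.05, 0 with edgeR and 0 with DESeq2) and 1 called lower, beside 13.0% and 12.7% of all genes.

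Subunits without a call were the sarcospan gene Sspn (0.10, SE 0.15), Dtnb (-0.13, SE 0.13), the dystrophin-related Drp2 (0.18, SE 0.19), the caveolin gene Cav3 (0.39, SE 0.52) and Sntb2 (0.15, SE 0.12). Sntb2, the β2-syntrophin gene, was at 1322, 1356, 911 and 1317 normalized counts in Lgr6-null M0, M2, M3 and M4, against 1134, 1044, 1143 and 1036 in wild-type. Lgr6-null M3 alone was below wild-type, and without it Sntb2 was at 0.29 on the log2 scale (SE 0.06). That library was singled out after its value was seen, so the fit without it gives no test. Over 17 alternatives to the main fit, Sntb2 ran from -0.19 to 0.29. With all libraries the limma adjusted p of Sntb2 was 0.396. The γ1-syntrophin gene Sntg1 had 4 reads over the Lgr6-null libraries and 31 over the wild-type libraries, too few to be tested. Sgcz, Sntg2 and Nos1 were not analysed here.

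α-Dystroglycan binds laminin through sugar chains that a series of enzymes builds on O-linked mannose. Of 18 genes of this route, 15 were tested, with 0 called higher (1 at an unadjusted p under 0.05, 0 with edgeR and 0 with DESeq2) and 6 called lower, and a median log2 fold change of -0.12. Over all genes tested, 13.0% were called higher and 12.7% lower. Gmppb, which makes the GDP-mannose that feeds the route, had the smallest p among the 6. It was at 346 ± 36.7 in Lgr6-null, against 480 ± 12.8 in wild-type (-0.48 on the log2 scale, SE 0.08; limma adjusted p = 0.00306), lower in 4 of 4 libraries. The mannosyltransferase Pomt2 (-0.27), the acetylglucosaminyltransferases Pomgnt1 (-0.19) and Pomgnt2 (-0.41), the mannose kinase Pomk (-0.65) and B3galnt2 (-0.29) were the other calls. Each of these 5 calls was lost after scaling to equal totals and with 1 or more libraries left out, Pomgnt2 without Lgr6-null M0 only. Pomgnt1 lost its call without any of 7 libraries, Pomt2 and Pomk without any of 5 and B3galnt2 without any of 4, with adjusted p up to 0.110. Pomt1, the partner of Pomt2, was at -0.08 (SE 0.08), and Rxylt1, a xylosyltransferase of the same route, at -0.05 (SE 0.07), without a call.

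Ligands of dystroglycan went both ways. Of 9 tested, 2 were called higher and 3 lower, beside 13.0% and 12.7% of all genes. The laminin chain Lama5 had 688, 490, 750.0 and 498 normalized counts in Lgr6-null M0, M2, M3 and M4, against 106, 134, 328 and 199 in wild-type M0, M1, M2 and M3 (1.77 on the log2 scale, SE 0.31; limma adjusted p = 0.00298). Lama1 was at 50.2 ± 22.5 in Lgr6-null, against 15.8 ± 4.93 in wild-type (1.55, SE 0.33; limma adjusted p = 0.00823), higher in 4 of 4 libraries. Lama2, the laminin chain of muscle basement membrane, was at 1.38 (SE 0.53) without a call. The heparan sulfate proteoglycans Agrn and Hspg2 fell by 0.68 (SE 0.10; limma adjusted p = 0.00129) and by 0.33 (SE 0.09; limma adjusted p = 0.0197) on the log2 scale. Hspg2 was not called without wild-type M1 (limma adjusted p = 0.0601), nor after scaling to equal totals (limma adjusted p = 0.0734) or with the column numbers as a replicate block (limma adjusted p = 0.141). Lama1 lost its call with that block too. Egflam, which encodes pikachurin, was at 3.71 ± 2.22 in Lgr6-null, against 21.0 ± 7.35 in wild-type (-2.33, SE 0.48). Its Lgr6-null values rest on 4, 6, 1 and 3 reads in M0, M2, M3 and M4. Egflam entered the fit through its wild-type level alone, so that it had to differ to be tested. Nothing is read from its call, which is among the 3 lower.

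Among 11 cytoplasmic partners, 1 was called higher and 1 lower, beside 13.0% and 12.7% of all genes. Synm encodes synemin, an intermediate filament protein that binds dystrobrevin. It had 184, 358, 180 and 170 normalized counts in Lgr6-null M0, M2, M3 and M4, against 651, 719, 548 and 653 in wild-type M0, M1, M2 and M3. Synm fell by 1.59 on the log2 scale (SE 0.22; limma adjusted p = 0.000781), and Lgr6-null M2 stood above the other Lgr6-null libraries. The dysbindin gene Dtnbp1, whose product binds dystrobrevins, was at 1034 ± 75.9 in Lgr6-null, against 852 ± 38.6 in wild-type (0.28, SE 0.07; limma adjusted p = 0.0149), and at -0.07 with libraries scaled to pan-mesenchymal genes. Dtnbp1 lost its call with the column numbers as a replicate block. The linkers Plec (-0.18, SE 0.15) and Macf1 (-0.27, SE 0.11) and the ankyrins Ank2 (-0.26, SE 0.21) and Ank3 (-0.60, SE 0.21) were not called.

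Of 6 other laminin receptor genes, 2 were called higher and 0 lower (1 lower at an unadjusted p under 0.05, 0 with edgeR and 1 with DESeq2). Over all genes tested, 13.0% were called higher and 12.7% lower. The integrin chain Itga6 was at 3785 ± 514 in Lgr6-null, against 2174 ± 192 in wild-type (0.79, SE 0.10; limma adjusted p = 0.000627), higher in 4 of 4 libraries. Its partner Itgb4 was at 38.4 ± 9.81 in Lgr6-null, against 22.3 ± 3.15 in wild-type (0.74, SE 0.23; limma adjusted p = 0.0395), and the call was lost without any of 7 libraries, every one but Lgr6-null M2 (adjusted p up to 0.0912). Itga7, the integrin chain that partners Itgb1 as a laminin receptor of muscle, was at -0.52 (SE 0.18; limma adjusted p = 0.0627), and Itgb1 at 0.04. Macrophage markers were higher in the same Lgr6-null libraries, and their part in these values was not tested.

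**Figure D5:**
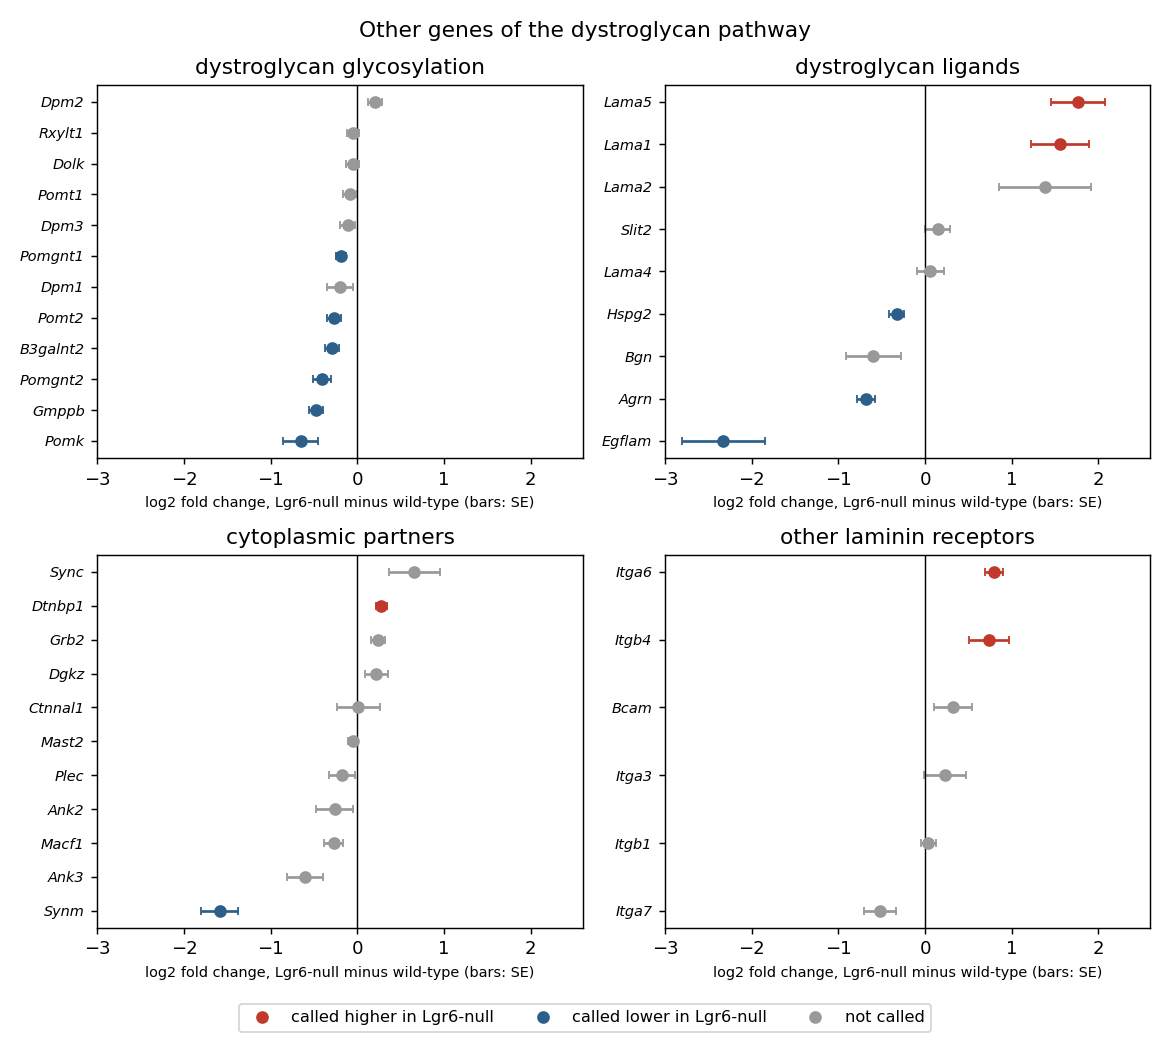
Log2 fold change (horizontal axis, Lgr6-null minus wild-type, bars are SE) of reported genes in 4 lists, red where called higher in Lgr6-null, blue where called lower and grey where not called. Glycosylation genes lie between -0.65 and 0.21, while the ligands span from Egflam at -2.33 to Lama5 at 1.77.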

How the data were processed

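Polyadenylated RNA was sequenced as 8 stranded libraries with reads of 100 bases, per the labels' protocols. The deposited table holds a signal, gene read counts that the authors divided by 1 size factor per library. HTSeq 0.13.5, HISAT2 2.1.1 and DESeq2 are listed, with GRCm39 as the build, per the submitters' processing notes; settings and annotation: not given in the sources used here. In each library 100% of values were whole multiples of 1 step within 0.01 read, so whole reads were recovered. Columns carry a genotype and a number that cannot be tied to the titles, and were assigned to genotypes only. The lowest total of a gene over all libraries was 11 reads, and genes with fewer are not analysed here. No library was a copy of another: chi-square between those of a genotype was 8.59 or more per degree of freedom.

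The genotypes were compared on log2(normalized count + 1) with limma 3.58.1 under R 4.3.3, trend included, for genes with at least 10 normalized counts in at least 4 libraries. p-values were adjusted by Benjamini-Hochberg over all 14294 genes tested, with calls under 0.05. edgeR 4.0.16 (quasi-likelihood, TMM) and DESeq2 1.42.0 on recovered reads, and other pseudocounts, filters and scalings, were alternatives. Fits were tested on simulated counts. Symbols, lengths and neighbours came from GENCODE M21 (GRCm38): 19361 identifiers matched and 99 did not. The members and lists were chosen with earlier results of these data known. Named are all members, Lgr6, every measured other subunit, each called gene of the other lists and the 3 genes most like each member. Others were chosen after their values were seen. Some listed genes, counted in the totals of their lists, are not reported here.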

Additional observations from a re-analysis of the deposited data

Results flagged for a closer look

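In 6 of 62 groups of 4 libraries checked, over the 9 members, Lgr6 and 21 other named genes, a single library lay far from the other 3 (gap over range above Dixon's critical value); chance marks about 1 in 20 groups. All 6 were in Lgr6-null. The member among them was Sntb1, at 84.0 normalized counts in M4 where the other Lgr6-null libraries were at 25.1 to 30.1. Lgr6-null M4 was also low for Pomgnt1 (823) and high for Pomgnt2 (179). Lgr6-null M3 was low for Sntb2 (911) and high for Dtnbp1 (1147). Lgr6-null M2 was high for Synm (358). M4 had the fewest reads of all libraries, 7629968.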

How the results depend on the processing

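All 17 alternatives kept a negative log2 fold change for Sgca (-5.32 to -4.48), Sgcb, Utrn, Dag1 and Dtna and a positive one for Dmd and Sntb1 where these were tested; Sgcd and Sgce changed sign as given with their values. Among 11 pan-mesenchymal genes tested, 5 were called higher in Lgr6-null and 1 lower, beside 13.0% and 12.7% of all genes. Scaling to the pan-mesenchymal genes moved the median of all genes to -0.34 and the members with it. Sgcb moved to -0.66, Sgcd to -0.41, Sgce to -0.44, Utrn to -0.87 and Dag1 to -0.69 with this scaling. The same scaling gave 540 genes higher and 6078 lower, against 1855 and 1821, and 3 and 25 of the other listed genes, against 5 and 11. Dtnbp1 turned to -0.0661. Scaling to the same total gave 2886 higher and 1281 lower, and 5 other listed genes lower. The numbers of the columns were tried as a replicate block, which leaves Lgr6-null M4 and wild-type M1 without a partner. This block gave 937 higher and 1021 lower, and 2 and 7 of the other listed genes. Same-numbered libraries did not deviate together (r of -0.010, -0.117 and 0.027), but so few pairs cannot show whether the numbers pair libraries. Leaving out single libraries gave 7 to 11 other listed genes lower, 7 without wild-type M1 or M3. The cause of these shifts was not tested. Low reads limit Sgca in Lgr6-null, and Dmd and Sntb1 in both genotypes.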

Other observations

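Next to Sgce, on the opposite strand, lies Peg10, a retrotransposon-derived gene that is imprinted like Sgce. Peg10 had 74.6 ± 18.5 normalized counts in Lgr6-null and 372 ± 49.0 in wild-type (SD, n = 4 each; log2 fold change -2.33, SE 0.18; limma adjusted p = 3.37e-05), lower in 4 of 4 libraries, while Sgce was at -0.09 (SE 0.10). On the other side of Sgce, Casd1 was at 735 ± 42.4 in Lgr6-null, against 688 ± 50.3 in wild-type. Beside Dag1, Bsn, known for its role at synapses, was at 46.4 ± 19.3 in Lgr6-null, against 116 ± 34.3 in wild-type (-1.34, SE 0.31; limma adjusted p = 0.0120), and Nicn1 at -0.06 (SE 0.10). These neighbours were chosen after their values were seen.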
